A study of Mus musculus with 6 samples.

Results

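The genes described here belong to the unfolded protein response and the integrated stress response of mouse heart cells in culture. They were chosen from a list of 40 gene symbols, and a symbol was kept where the annotation of the array names a probe set for it. This gave 35 members among the 19505 named genes. The members Gdf15, Pycr1, Aars, Pdia4 and Manf were not analysed here.

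Total RNA of cultured C57BL/6N mouse heart cells was measured on 6 Affymetrix arrays, with 1 array in each of 6 groups. The labels give an age of 15 to 16 weeks for every sample. Cardiac fibroblasts (CF), which make the matrix of the heart, and cardiomyocytes (CM), its beating muscle cells, were each kept for 48 h under 3 conditions. The controls received phosphate-buffered saline (PBS) and carry the title sham, although all conditions were cell cultures. The others received the secretome of Ccrl2+ or of Ccrl2- macrophages, sorted from 6 pooled hearts of wild-type mice 1 week after transverse aortic constriction (TAC), which overloads the left ventricle. Each macrophage secretome therefore stands for a single pool of animals. The protocols in the labels speak of culture together with the macrophages, whereas the source labels name their secretome, and the source labels were followed. Since no group had a second array, no difference below could be set against a spread between samples, and no test was made.

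Misfolded proteins in the endoplasmic reticulum (ER) are sensed by the membrane proteins IRE1, PERK and ATF6, which together start the unfolded protein response. IRE1 splices the messenger of Xbp1, ATF6 is cut into a transcription factor, and both raise the ER chaperones and the machinery that removes misfolded proteins. PERK phosphorylates the translation factor eIF2, as do kinases that respond to amino acid shortage, to double-stranded RNA and to haem shortage, and this shared branch is the integrated stress response. It slows translation in general but favours that of Atf4, whose protein turns on genes of amino acid synthesis, amino acid import and tRNA charging. ATF4 is also known to support the glycine and proline supply of collagen-producing fibroblasts.

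The promoters of the members carry short sequence elements of these branches, and they are shown so that the values below can be read by element as well as by role. Promoter windows from RefSeq, build GRCm38.p6, reach from 250 bases before to 50 bases after a gene's start, and 36 of the 40 listed genes matched a window by symbol. Eif4ebp1, Hyou1, Manf and Wars had none. Psat1, Vldlr and Gdf15 had several start sites, and a gene was counted when any of its windows held the element. The core of the element bound by ATF4 with a C/EBP partner (CARE) was searched as TGATGNAA on both strands. It stood in the windows of 9 of the 36 genes and in 3.97% of all 32851 windows of 300 bases. The ER stress element (ERSE), searched on both strands as CCAAT, any 9 bases and CCACG, stood in those of 7 genes and in 0.119% of all windows. The related ERSE-II, searched as ATTGG, any base and CCACG, was in 1 gene's window, that of Herpud1, and in 0.0365% of all. TGACGTGG, an element bound by ATF6 and XBP1 (UPRE), was in 0 of the 36 and in 0.676% of all. The listed genes are known targets of these factors, so a high share among them is no independent result, and a match is a description and not a site in use. No found element overlapped another.

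The CARE core is shown first in 3 members that were at least 2-fold lower with the Ccrl2+ secretome in fibroblasts. Below are the 250 bases before the start in the gene's direction, with the core in capitals. The stretches lie at chr6:7693210-7693459 on the minus strand for Asns, at chr2:119350992-119351241 on the plus strand for Chac1, and at chr19:27216770-27217019 on the plus strand for the start site of Vldlr that held the core.
Asns: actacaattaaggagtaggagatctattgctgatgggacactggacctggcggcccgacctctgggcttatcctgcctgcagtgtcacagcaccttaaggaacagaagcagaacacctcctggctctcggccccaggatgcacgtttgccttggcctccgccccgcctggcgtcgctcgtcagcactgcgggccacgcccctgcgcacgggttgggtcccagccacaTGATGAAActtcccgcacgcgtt
Chac1: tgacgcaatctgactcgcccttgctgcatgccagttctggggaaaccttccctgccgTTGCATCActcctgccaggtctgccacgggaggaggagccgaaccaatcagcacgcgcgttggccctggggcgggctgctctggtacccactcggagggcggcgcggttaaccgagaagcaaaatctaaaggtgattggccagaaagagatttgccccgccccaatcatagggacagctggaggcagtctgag
Vldlr: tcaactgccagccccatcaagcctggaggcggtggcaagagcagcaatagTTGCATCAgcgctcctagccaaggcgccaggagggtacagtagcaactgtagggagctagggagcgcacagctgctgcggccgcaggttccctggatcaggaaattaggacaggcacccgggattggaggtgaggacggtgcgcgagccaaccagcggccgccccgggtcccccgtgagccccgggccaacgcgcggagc
The core began 23 bases before the start in Asns, 193 in Chac1 and 200 in Vldlr.

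Herpud1 was the member whose window held elements of both branches, a CARE core that began 112 bases and an ERSE-II that began 52 bases before the start. Its stretch lies at chr8:94386179-94386428 on the plus strand, with both elements in capitals.
Herpud1: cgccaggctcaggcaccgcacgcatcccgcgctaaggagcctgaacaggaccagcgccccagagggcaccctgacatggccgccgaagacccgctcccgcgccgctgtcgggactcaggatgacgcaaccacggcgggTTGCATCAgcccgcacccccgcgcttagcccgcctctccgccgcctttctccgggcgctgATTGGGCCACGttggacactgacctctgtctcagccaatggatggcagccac
The core read TTGCATCA on the gene's strand in Herpud1, Chac1, Vldlr and Nupr1, and TTTCATCA in Gars. In Trib3 it lay 15 to 22 bases after the start and read TTACATCA.

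ERSE is shown in a pair of ER folding genes. Hspa5 lies at chr2:34771840-34772089 and Pdia6 at chr12:17266339-17266588, both on the plus strand, with the element in capitals.
Hspa5: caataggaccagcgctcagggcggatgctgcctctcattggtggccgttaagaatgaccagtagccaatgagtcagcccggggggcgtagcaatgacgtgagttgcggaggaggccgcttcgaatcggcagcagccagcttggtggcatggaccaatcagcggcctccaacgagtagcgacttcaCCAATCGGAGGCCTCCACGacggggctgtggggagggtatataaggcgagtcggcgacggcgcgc
Pdia6: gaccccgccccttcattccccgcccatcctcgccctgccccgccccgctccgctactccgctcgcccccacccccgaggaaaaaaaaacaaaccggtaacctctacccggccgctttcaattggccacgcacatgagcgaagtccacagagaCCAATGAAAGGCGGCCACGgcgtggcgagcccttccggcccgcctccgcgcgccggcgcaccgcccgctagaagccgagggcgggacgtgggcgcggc
Calr, Creld2, Dnajc3 and Syvn1 each held an ERSE as well, and Hsp90b1 held a pair of them.

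Values are log2 summaries of a probe set, and a difference of 1 is 2-fold. Levels of different genes come from different probes and are not set against each other. A gene was counted as past the floor when the higher of the compared values reached 6.55, the median of all named values, and a difference was counted from 2-fold. Probe sets named as negative controls by their identifiers varied widely, and 95% of their values over the 6 arrays lay below 10.51. What they match on the array was not given in the sources used here, and in PBS 25.8% of those counted exceeded their CM level in CF by 2-fold or more, while 4.87% fell short of it by as much. Between the Ccrl2+ and PBS arrays of CF, 8.52% of the controls past the floor gained and 11.2% lost 2-fold or more, so single differences near 2-fold carry little weight. In CM 6.06% and 6.8% of them differed as much in the same comparison. The poly-A spike-in transcripts, added to the RNA before labelling, were higher by a median of 0.605 on the Ccrl2+ CF array than on the PBS array. The hybridization spike-ins were higher by a median of 0.305 on the same pair. The part of these shifts in the member values was not tested. With PBS, the fibroblast markers Col1a1 (16.63 in CF and 10.13 in CM) and Col3a1 (17.4 and 8.78) were higher in CF. The cardiomyocyte markers Tnnt2 (18.03 in CM and 16.12 in CF) and Myh6 (17.32 and 9.63) were higher in CM. Some markers were thus far above the floor in the other culture too, as were Nppa of cardiomyocytes (16.1 in CF) and Dcn of fibroblasts (15.34 in CM). Pecam1, an endothelial marker, lay at 13.87 in CM and 8.31 in CF, and Ptprc, which marks leukocytes, at 8.86 and 9.06. Of these 4 values, the Pecam1 level in CM alone exceeded 10.51, the level of the negative controls. The 9 measured macrophage markers, however, had a median level with PBS of 11.22 in CF and 10.69 in CM, both above 10.51. The 6 endothelial markers had medians of 9.4 in CF and 13.305 in CM. The 5 measured B and plasma cell markers were below the floor on all 6 arrays. In RNA of a whole culture, fewer cells of a type and less RNA per cell cannot be told apart.

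**Figure D1:**
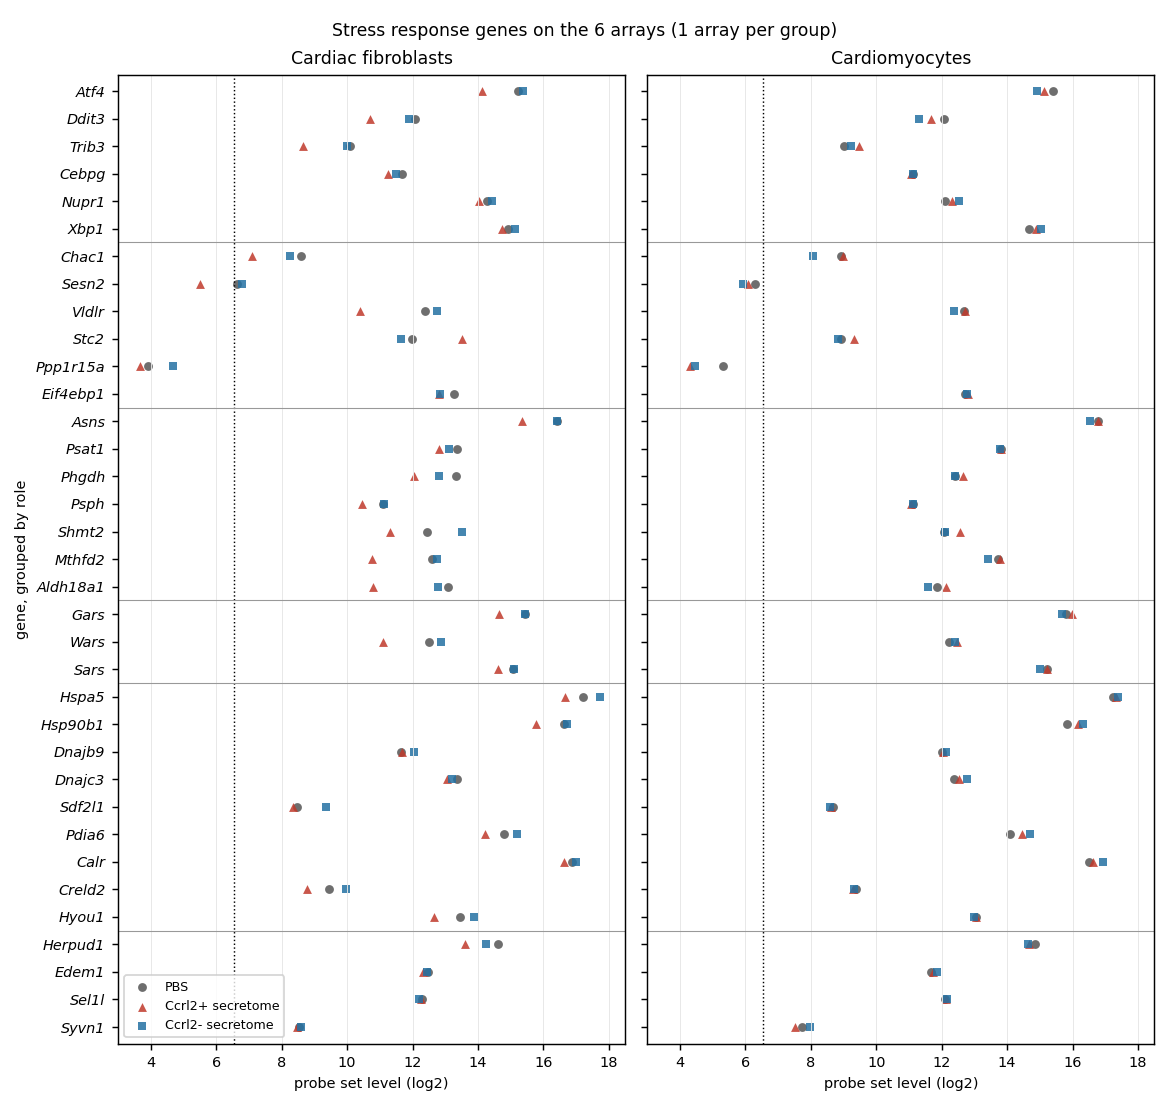
Level of each of the 35 members on the 6 arrays. The horizontal axis is the probe set level on a log2 scale, each row is a gene, rows are grouped by role, each symbol is 1 array, and the dotted line is the floor of 6.55; the Ccrl2+ symbols of CF sit to the left of the others in most rows.

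With the Ccrl2+ secretome, fibroblasts had lower levels of ATF4-branch genes than with PBS, while most ER folding and degradation genes differed less. Of the 34 members past the floor, 12 lay below PBS by 2-fold or more, against 6.13% of the 10042 genes past the floor. These were Atf4, Ddit3, Trib3, Chac1, Sesn2, Vldlr, Asns, Phgdh, Shmt2, Mthfd2, Aldh18a1 and Wars. Stc2 was the 1 member at least 2-fold higher, against 4.87% of genes. The median of the members was -0.67 and that of all genes -0.07. The Ccrl2+ array held the lowest of the 3 CF values for 31 of 34 members, against 39.3% of genes. Ppp1r15a, which encodes the phosphatase subunit that ends the eIF2 signal, was below the floor on all arrays and was not counted.

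Atf4, the transcription factor of the branch, lay at 15.21 with PBS, 14.12 with the Ccrl2+ secretome and 15.38 with the Ccrl2- secretome in CF. The Ccrl2+ value stood alone, 1.09 below PBS, while the CM values lay between 14.92 and 15.39. Ddit3 encodes CHOP, a transcription factor linked to cell death under lasting ER stress, and lay at 12.09, 10.69 and 11.89 in the same order of CF arrays. A second probe set of Ddit3, read from the same arrays, lay at 10.4, 8.9 and 10.28, all within the range of the negative controls. Both probe sets showed the low value on the Ccrl2+ array, by -1.4 and -1.5. Trib3, a pseudokinase that restrains ATF4 and CHOP, lay at 10.08, 8.65 and 10.0. All 3 values of Trib3 were within the range of the negative controls. Cebpg, a C/EBP partner of ATF4, was at 11.68, 11.26 and 11.5, and Nupr1, a small stress-induced nuclear protein gene, at 14.28, 14.02 and 14.44. Xbp1 lay at 14.92, 14.74 and 15.12, and the splicing of its messenger cannot be read from this value. Of these 6 regulators, 3 were at least 2-fold lower, against 6.13% of all genes past the floor, and the median was -0.76.

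The enzymes that make serine, asparagine, proline precursors and folate-bound carbon units were lower together. All 7 measured genes of this role were below their PBS value, 5 of them by at least 2-fold, with a median of -1.14. Of all 10042 genes past the floor, 5556 were below PBS, and 6.13% were at least 2-fold lower. Aldh18a1, whose enzyme makes the precursor of proline and ornithine, lay at 13.08 with PBS, 10.79 with Ccrl2+ and 12.79 with Ccrl2-. The Ccrl2+ value was 4.89-fold below PBS, the largest difference of any member in this comparison. Mthfd2, a mitochondrial folate enzyme gene, lay at 12.58, 10.75 and 12.74. Shmt2, whose mitochondrial enzyme splits serine into glycine and a carbon unit, lay at 12.44, 11.3 and 13.51, lowest with Ccrl2+ and highest with Ccrl2-. Asns, asparagine synthetase, lay at 16.41, 15.33 and 16.42, so PBS and Ccrl2- nearly coincided. The serine synthesis genes differed in size. Phgdh, the entry enzyme, lay at 13.33, 12.05 and 12.81. Psat1 at 13.35, 12.8 and 13.11 and Psph at 11.11, 10.46 and 11.14 stayed under 2-fold.

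Among the other ATF4 and CHOP targets, the differences ran both ways. Vldlr, a lipoprotein receptor gene, lay at 12.38, 10.39 and 12.76, so the Ccrl2+ array was 1.99 lower than PBS. Chac1, whose enzyme breaks down glutathione, lay at 8.59, 7.09 and 8.26, all within the range of the negative controls. Sesn2, a brake on the growth kinase complex mTORC1, lay at 6.63, 5.5 and 6.79. The measured difference from PBS was -1.13, but the Ccrl2+ value is below the floor, and against the floor the gene was lower by at least 0.08. Stc2, a secreted glycoprotein gene, went the other way and lay at 11.98, 13.52 and 11.65. It was 2.91-fold higher with Ccrl2+ than with PBS and was the member whose highest CF value was that of the Ccrl2+ array. Eif4ebp1, a repressor of cap-dependent translation, lay at 13.26, 12.8 and 12.83, lower by a similar amount with both secretomes.

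Of the tRNA synthetases, which join amino acids to their tRNAs, all 3 measured members were lower with Ccrl2+ than with PBS. So were 5556 of all 10042 genes past the floor, so the direction alone says little. Wars, the tryptophan enzyme gene that interferon-gamma is known to induce, lay at 12.5 with PBS, 11.11 with Ccrl2+ and 12.86 with Ccrl2-. Gars (15.45, 14.65 and 15.43) and Sars (15.08, 14.62 and 15.1) were lower with Ccrl2+ by 0.8 and 0.46, with almost no gap between the other arrays.

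None of the 9 ER folding genes or the 4 ER-associated degradation genes reached 2-fold in this comparison. The folding genes had a median of -0.55, and 8 of the 9 were lower with Ccrl2+ than with PBS. Of all 10042 genes past the floor, 5556 were lower, and the median was -0.07. Hsp90b1, the ER form of the chaperone HSP90, lay at 16.62, 15.76 and 16.73, and Hspa5, which encodes BiP, the main ER chaperone, at 17.2, 16.65 and 17.72. Hyou1, a nucleotide exchange partner of BiP, lay at 13.44, 12.66 and 13.89. The remaining folding genes ranged from -0.69 (Creld2) to 0.02 (Dnajb9). Of the degradation genes, Herpud1 stood apart at 14.6, 13.61 and 14.24, a difference of -0.99. The others, Edem1, Sel1l and Syvn1, which serve the recognition and ubiquitination of misfolded proteins, differed by -0.13, -0.05 and -0.06. The small differences of Sel1l and Syvn1 changed sign when the comparison was centred on the median of all genes.

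Read by promoter element, the 7 measured genes with a CARE core had a median of -1.08 with the Ccrl2+ secretome, from -1.99 in Vldlr to -0.26 in Nupr1. The 7 genes with an ERSE had a median of -0.55, from -0.86 in Hsp90b1 to -0.06 in Syvn1. The 17 members past the floor with a window that held neither CARE, ERSE nor ERSE-II also had a median of -0.55. Of these 17, 7 were at least 2-fold lower, Aldh18a1 and Mthfd2 included, against 6.13% of all genes past the floor. Between the secretomes in CF the classes were closer, with medians of -1.09 for the CARE genes and -0.97 for the ERSE genes. At least 2-fold lower with Ccrl2+ were 4 and 2 of 7, against 10.1% of all genes, whose median was 0. The ranges of the classes overlapped in both comparisons, and the difference between them was not tested.

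**Figure D2:**
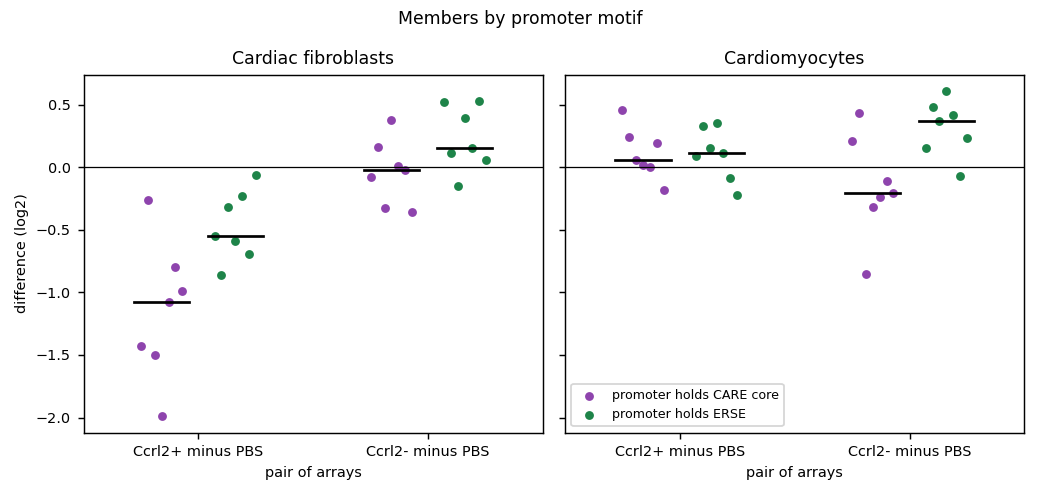
Difference from PBS (log2) of the members whose promoter window holds a CARE core (7 genes, purple) or an ERSE (7 genes, green), for each secretome in CF and CM. Points are genes of the same pair of arrays and bars are medians; in CF with Ccrl2+ the bars are at -1.08 and -0.55.

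Transcripts of other cell types also differed on this array. Among the 7 of 8 cardiomyocyte markers past the floor, 3 exceeded PBS by 2-fold or more with Ccrl2+, against 4.87% of all genes. The median of the 7 was 0.96, against -0.07 for all genes. Ryr2 was below the floor on all 3 CF arrays. Their summed level on the log2 scale was 18.05 with Ccrl2+, 17.14 with PBS and 16.57 with Ccrl2-. The 9 measured macrophage markers were above the floor on all 3 arrays and summed to 15.22, 14.58 and 14.48 in the same order. Single genes did not all follow these sums. With Ccrl2+ 7 of the 9 were above PBS and 2 below, with a median of 0.71. With Ccrl2- 3 were above PBS and 6 below, with a median of -1.1. The medians of all genes were -0.07 and -0.09. The 7 measured fibroblast markers summed to between 19.33 and 19.46. The part of these differences in the stress gene values was not tested.

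**Figure D3:**
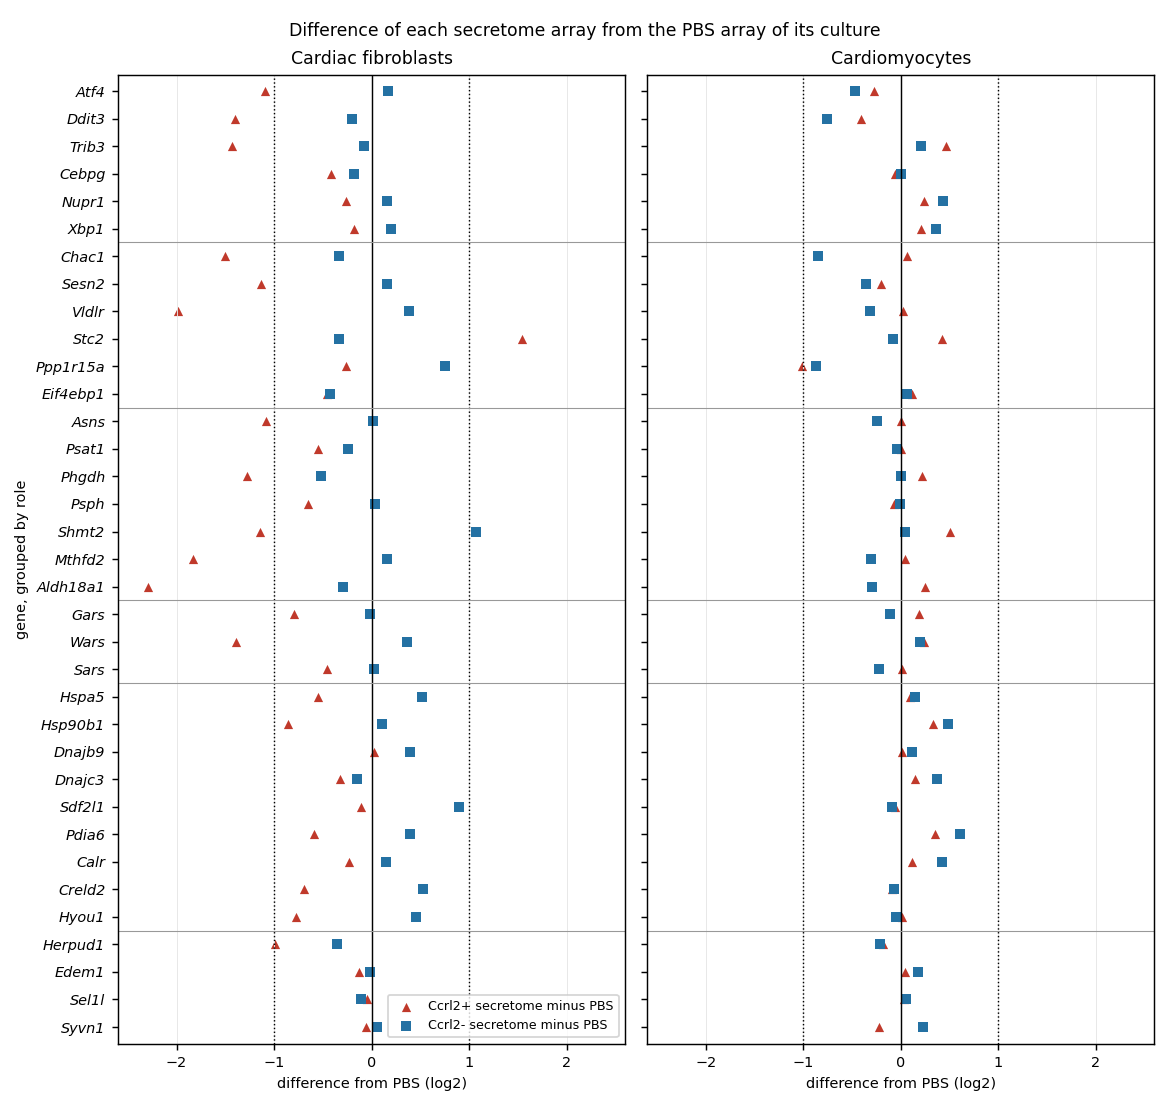
Difference of each secretome array from the PBS array of the same culture, for the 35 members in order of role. The horizontal axis is log2, dotted lines mark 2-fold, and each symbol is the difference of a pair of arrays; in CF the Ccrl2+ symbols reach from -2.29 (Aldh18a1) to 1.54 (Stc2), while in CM every member past the floor lies inside the 2-fold lines.

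With the Ccrl2- secretome, most members in fibroblasts lay near their PBS levels, and the median of the ER folding genes was 0.39 above PBS. Of the 21 further ATF4 targets described below, 4 were at least 2-fold higher. Shmt2 was the 1 of 34 members at least 2-fold higher, by 1.07, against 6.18% of 10057 genes. None was at least 2-fold lower, against 4.83% of genes. Of the negative controls past the floor, 6.84% were higher and 6.21% lower by as much. The members' median was 0.045 and that of all genes -0.09. The comparison shares its PBS array with the one above. Of the 9 folding genes 8 were above PBS, and none reached 2-fold. Sdf2l1, a cofactor of ER co-chaperones, had the largest difference of the role at 9.36 against 8.46, within the range of the negative controls. Creld2 (9.98 against 9.45, also within that range), Hspa5 (17.72 against 17.2) and Hyou1 (13.89 against 13.44) followed. The Ccrl2- array held the highest CF value for 20 of the 34 members, against 31.4% of genes. Among the regulators all differences lay between -0.2 and 0.2. Of the 9 macrophage markers 2 were at least 2-fold higher and 5 lower on this array, and their part in these values was not tested.

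Set directly against each other, the fibroblast arrays of the secretomes differed in more members. With Ccrl2+, 15 of 34 members were at least 2-fold lower than with Ccrl2-, against 10.1% of 10144 genes. Stc2 was at least 2-fold higher, against 8.55%. Of the negative controls past the floor, 11.3% were lower and 7.75% higher by as much. The median was -0.88 for the members and 0 for all genes. Vldlr (10.39 against 12.76), Shmt2 (11.3 against 13.51), Aldh18a1 (10.79 against 12.79) and Mthfd2 (10.75 against 12.74) had the largest negative differences. Here 4 of the 9 folding genes passed 2-fold as well, namely Hyou1 by -1.23, Creld2 by -1.22, Hspa5 by -1.07 and Sdf2l1 by -1.01. Sdf2l1 no longer did after a further quantile normalization, at -0.93. The degradation genes again stayed close, with a median of -0.11. The median of the folding genes was -0.98, close to the -1.09 of the amino acid and folate enzyme genes and beyond the -0.81 of the regulators and the -0.78 of the tRNA synthetases. Markers of other cells differed as well: each of the 7 counted cardiomyocyte markers exceeded its Ccrl2- level with Ccrl2+ by 2-fold or more, with a median of 1.48. Of the 9 macrophage markers 4 were at least 2-fold higher and 1 lower. The poly-A spikes were also higher with Ccrl2+, by a median of 0.89. The part of these in the member values was not tested. Both arrays of this pair also enter the comparisons with PBS, so these values repeat part of them.

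In cardiomyocytes no member past the floor reached 2-fold with either secretome or between them. Few genes of any kind did, namely 0.21% higher and 0.629% lower of 10009 with Ccrl2+ over PBS. With Ccrl2- over PBS the shares were 0.746% and 0.786%, and between the secretomes 0.13% and 0.18%. The members' medians were 0.04, 0 and 0.04. All members past the floor lay within 0.5 of PBS with Ccrl2+, the outermost being Shmt2 (12.57 against 12.07) and Trib3 (9.48 against 9.02) on the high side and Ddit3 (11.66 against 12.07) on the low side.

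The Ccrl2- array of CM showed small differences from PBS in both directions within each branch. Chac1 lay at 8.92 with PBS, 8.98 with Ccrl2+ and 8.07 with Ccrl2-, and Ddit3 at 12.07, 11.66 and 11.31. Atf4 was lowest on the same array at 14.92, against 15.39 and 15.12. Trib3 and Nupr1 were above PBS on it, by 0.21 and 0.43, and the median of the 6 regulators was 0.105. Of the 9 ER folding genes 6 were above PBS, while Sdf2l1, Creld2 and Hyou1 were below it, by -0.09, -0.07 and -0.05. Pdia6, a disulfide isomerase gene, lay at 14.09 with PBS, 14.44 with Ccrl2+ and 14.7 with Ccrl2-. Hsp90b1 (15.84, 16.17 and 16.32) and Calr, the calcium-binding lectin chaperone calreticulin (16.5, 16.61 and 16.92), stood in the same order. The 7 ERSE genes had a median of 0.37 and the 7 CARE genes of -0.21 with Ccrl2- over PBS, and the difference between the classes was not tested. All these differences were under 2-fold. Markers of other cells moved more on the same arrays. The 7 fibroblast markers had medians of 0.67 with Ccrl2+ and 1.17 with Ccrl2-, and the 9 macrophage markers of -1.02 and -0.69. Summed, the fibroblast markers gave 15.83 with PBS, 16.04 with Ccrl2+ and 16.3 with Ccrl2-, and the macrophage markers 14.77, 13.79 and 14.22. Tcf21 was the 1 fibroblast marker below the floor with PBS. Their part in the small differences was not tested.

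In PBS the cultures themselves differed in few members. Stc2, Nupr1, Aldh18a1 and Trib3 were at least 2-fold higher in CF than in CM, 4 of 34 against 13.9% of 10394 genes, and Mthfd2 was at least 2-fold lower, against 16.9%. The share of members past 2-fold was thus not above that of all genes in either direction. Stc2 lay at 11.98 in CF and 8.91 in CM, Nupr1 at 14.28 and 12.09, Aldh18a1 at 13.08 and 11.87 and Trib3 at 10.08 and 9.02. Mthfd2 lay at 12.58 in CF and 13.73 in CM. Central members were close, with Atf4 at 15.21 and 15.39, Ddit3 at 12.09 and 12.07 and Hspa5 at 17.2 and 17.24. The members' median was 0.26 and that of all genes 0.01.

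Other genes of the same pathways were listed beside the members and read from the same arrays. These lists were chosen with earlier results of these data known, so their values are no independent result. Of 21 further ATF4 targets past the floor, 14 lay below PBS by 2-fold or more with Ccrl2+ in CF and 0 above it, with a median of -1.2. Over all genes past the floor the shares were 6.13% and 4.87%. Aldh1l2, another mitochondrial folate enzyme gene, lay at 11.98 with PBS, 9.68 with Ccrl2+ and 11.53 with Ccrl2-. The amino acid transporter gene Slc7a3 lay at 12.41, 10.21 and 11.9, and Mthfd1l, of the mitochondrial folate pathway, at 10.51, 8.64 and 12.37. Slc7a11, the cystine importer gene, lay at 9.42, 7.27 and 11.98, with the PBS and Ccrl2+ values within the range of the negative controls. Cth (8.36, 6.59 and 9.28) and Gpt2 (9.21, 7.44 and 8.6), of cysteine and alanine metabolism, each differed by -1.77. All values of Cth and Gpt2 in CF were within the range of the negative controls. The amino acid transporter genes Slc38a2 and Slc1a5 each differed by -0.09. With Ccrl2- 4 of the 21 targets were at least 2-fold higher than with PBS, namely Slc7a11, Ddit4, Atf3 and Mthfd1l, against 6.18% of genes. Both values of Atf3, 7.95 with PBS and 9.89 with Ccrl2-, were within the range of the negative controls. The median of the 21 targets was -0.03 (0.06 after centring on the median of all genes).

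Among 15 further cytosolic tRNA synthetases, 5 were at least 2-fold lower with Ccrl2+ than with PBS in CF and 0 higher, with a median of -0.71. Over all genes past the floor the shares were 6.13% and 4.87%. Cars (12.86 with PBS, 11.28 with Ccrl2+ and 13.08 with Ccrl2-), Iars (14.03, 12.66 and 13.92) and Tars (13.8, 12.52 and 13.99) led, and Qars alone was above PBS, by 0.48. Of 24 further ER folding and degradation genes, 1 was at least 2-fold lower, Fkbp14 by -1.09, against 6.13% of all genes, and the median was -0.28. Ero1a, the oxidase that drives disulfide formation, was at least 2-fold higher with Ccrl2-, at 15.94 against 13.39. It was the 1 gene of that list to do so, against 6.18% of all genes. The sensors and eIF2 control genes had medians of -0.16 with Ccrl2+ and -0.03 with Ccrl2-, the latter 0.06 after centring. Eif2ak3, which encodes PERK, lay at 11.02, 10.96 and 11.03, and Atf6 at 13.07, 12.91 and 12.97. Creb3l1, a membrane-bound transcription factor of the ATF6 kind, was the 1 sensor gene at least 2-fold lower with Ccrl2+ (11.64 against 13.21). Eif2ak2, the interferon-induced kinase PKR, was the 1 at least 2-fold higher with Ccrl2- (12.08 against 10.87). The sensor list had 15 genes past the floor in each comparison, and the shares of all genes were 6.13% and 6.18%. In CM, Slc7a11 was the 1 further target past 2-fold with Ccrl2- (10.34 against 11.64), and none was with Ccrl2+. Its Ccrl2- value there was within the range of the negative controls. Of all genes past the floor in CM, 0.786% lost and 0.746% gained as much with Ccrl2-. For Ccrl2+ these shares were 0.629% and 0.21%.

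**Figure D4:**
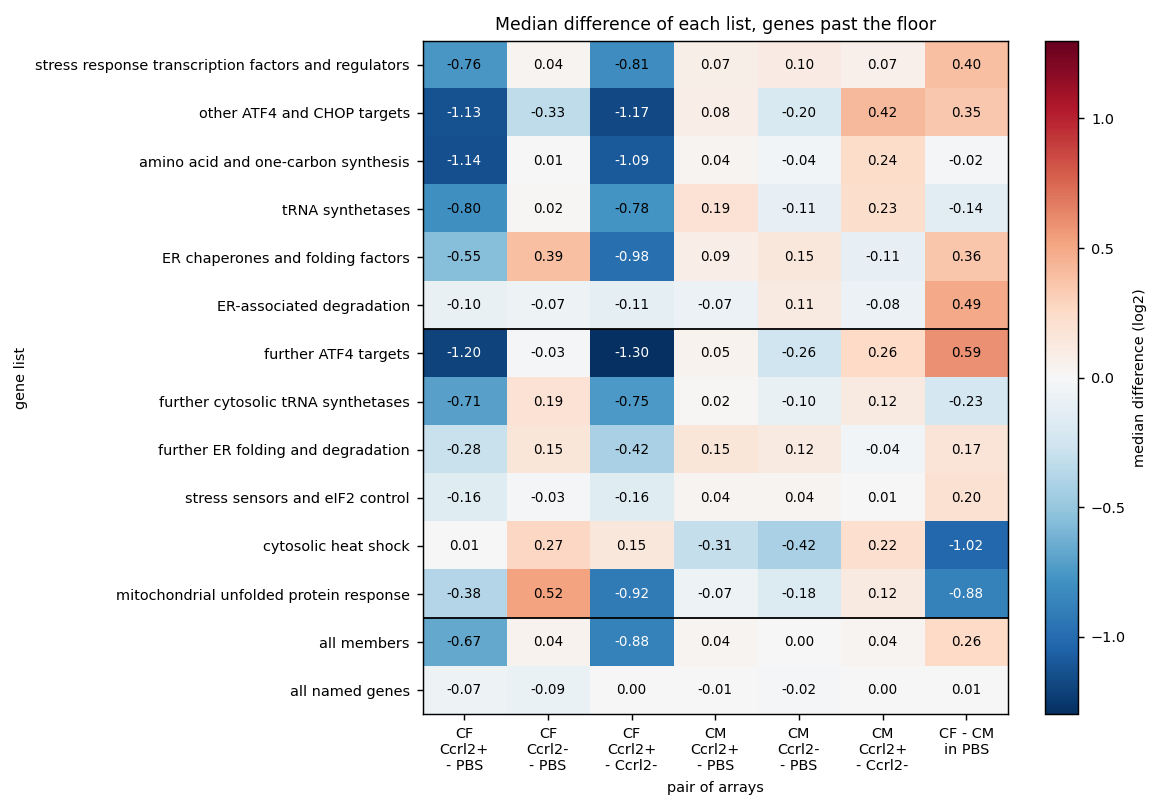
Median log2 difference of each list (rows) for each pair of arrays (columns), over genes past the floor. The top block holds the members by role, the middle block the further pathway lists and the bottom block all members and all named genes; medians near 0 of Ccrl2- minus PBS in CF can change sign with the scaling, and the column of Ccrl2+ minus PBS in CF runs from -1.2 for the further ATF4 targets to 0.01 for cytosolic heat shock.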

How the data were processed

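Per the submitters' processing notes, the authors used Affymetrix Expression Console, and the deposited table holds log2 summaries of each probe set on 6 arrays. The version of that software and its summary algorithm were not given in the sources used here. Per the labels' protocols, biotinylated cRNA came from 1 to 8 ug of total RNA. The number of arrays limits the precision.

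Of 28846 probe sets, 19572 had 1 symbol in the platform annotation, all matched to RefSeq (GRCm38.p6). For a symbol with several probe sets the one with the highest mean was used, leaving 19505 genes. Log2 values of 2 arrays were subtracted and counted at 2-fold where the higher value reached 6.55. Quantities were set beside all genes, and some counts also beside 5222 negative control probe sets. No p-value was computed.

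All members could be named; from further lists, up to 6 genes with the largest difference, and small differences where marked by their value. Slc38a2, Slc1a5, Qars, Eif2ak3 and Atf6 were named after their values were seen. The members and lists were chosen with earlier results of these data known. Alternatives changed the fold, the floor, the scaling and the choice of probe set. Counting was checked with simulated arrays. Python 3.11.15, numpy 2.4.6, pandas 2.3.3 and matplotlib 3.10.9 were used.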

Additional observations from a re-analysis of the deposited data

Results flagged for a closer look

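With the Ccrl2+ secretome, 8 members that were at least 2-fold lower than with PBS in CF were above PBS in CM, of the 11 such members past the floor in both cultures. Among all 518 genes that met the same criteria, 61.4% were above PBS in CM, and of the 33 members past the floor in both cultures, whatever their difference in CF, 23 were, so a sign in CM alone says little. The effect in CF minus the effect in CM, on the log2 scale, was -2.54 for Aldh18a1, -2.01 for Vldlr, -1.89 for Trib3, -1.87 for Mthfd2, -1.64 for Shmt2, -1.63 for Wars, -1.56 for Chac1 and -1.5 for Phgdh. The CM side was small in each, from 0.02 for Vldlr to 0.5 for Shmt2. With 1 array per group, the difference between the cultures was not tested.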

How the results depend on the processing

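Of 175 recomputed counts and medians over the members, 158 stayed within 1.5 times the reported count or within 0.1 of the reported median, and none changed direction. With the Ccrl2+ secretome over PBS in CF, the 12 lower members became 19 at 1.5-fold and 3 at 3-fold, and the 1 higher became 0 at 3-fold. With other floors, scalings or probe sets, 9 to 12 were lower. With Ccrl2- over PBS in CF, the 1 higher became 2 at 1.5-fold and 0 at 3-fold. Between the secretomes in CF, 15 lower became 5 at 3-fold. The median of -0.88 moved to -0.72 when the floor was the 75th percentile of named values or the 95th of the negative controls, the latter chosen after the data were seen. It was -0.77 when low values were set to the floor. In CM, 1 member (Ppp1r15a) was lower with Ccrl2+ without a floor. At 1.5-fold, 1 was higher and 2 lower with Ccrl2-, and 1 was higher with Ccrl2+ than with Ccrl2-. For CF over CM in PBS, the 4 higher became 10 at 1.5-fold and 2 at 3-fold, and the 1 lower became 0 at 3-fold and 2 without a floor. Fewer members past the higher floors and the moved threshold set these counts by construction.

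With the floor at the level of the negative controls, 9 of 28 members were lower with Ccrl2+ over PBS in CF, against 5.38% of genes and 12.6% of control probe sets. Trib3, Chac1, Sesn2, Sdf2l1, Creld2, Ppp1r15a and Syvn1 were then not counted. 

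No paired analysis was possible because each group had 1 array, and for the same reason no array was left out.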

Other observations

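Chaperone and protease genes of the mitochondria, taken as 1 list, gave medians close to those of the ER folding genes in CF. Of 9 genes of the mitochondrial unfolded protein response, 4 were at least 2-fold lower with Ccrl2+ than with Ccrl2- in CF, against 10.1% of genes. The median of the 9 was -0.92, beside 4 of 9 lower and a median of -0.98 for the ER folding genes. The 4 lower mitochondrial genes were Lonp1, a protease gene (9.64 against 11.18), the chaperonin gene Hspd1 (11.83 against 13.37), Hspa9 (12.31 against 13.63) and Dnaja3 (7.95 against 9.13). Both Dnaja3 values were within the range of the negative controls. Against PBS the medians were -0.38 with Ccrl2+ and 0.52 with Ccrl2-, beside -0.55 and 0.39 for the ER folding genes. In CM they were -0.07 and -0.18.

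The cytosolic heat shock list had a median of 0.01 with Ccrl2+ over PBS in CF. Hspb1, a small heat shock protein gene that muscle also expresses, was its 1 gene at 2-fold there, at 12.02 with PBS, 13.6 with Ccrl2+ and 10.66 with Ccrl2-. With Ccrl2+ over PBS in CF, 4.87% of all genes were at least 2-fold higher. In CM Hspb1 lay between 13.39 and 13.93. Hspa1b lay at 8.22 with PBS, 7.82 with Ccrl2+ and 6.74 with Ccrl2- in CM, all within the range of the negative controls. Its probes can bind its near-identical copy Hspa1a.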
